A study of Mus musculus with 12 samples.

Results

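The change of the PNU-282987 effect between 2 h and 6 h was measured in primary mouse cells labelled as Müller glia, the radial glia that span the neural retina. It is the PNU minus DMSO difference at 6 h less the same difference at 2 h, taken gene by gene. All genes that reached at least 1 CPM (CPM: counts scaled to a common library total) in 3 or more of the 12 libraries were members, which were 13144 of the 49315 genes listed. The filter itself uses expression level and no measured effect. It was chosen, like the gene lists and rules below, with earlier results of these data known.

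Wild type Müller glia were passaged (4 times according to the design text) and grown in transwell plates, whose membrane lets 2 cell types share medium, with primary mouse cells of the retinal pigment epithelium (RPE). The RPE cells had been given 100 nM PNU-282987 (PNU below), which activates α7 nicotinic acetylcholine receptors, or DMSO alone. The glia were the cells sequenced, after 2 h or 6 h. The design text gives these times as treatment of the RPE cells, and the treatment protocol gives them as time in co-culture. How long the glia shared medium is therefore not settled by the labels. There were 4 groups of 3 libraries, 1 for each agent at each time, and RPE cells were present in all 4. The labels give 2 DMSO concentrations, 1% and 0.1%, and do not say which applied. The sample titles name biological replicates without stating what was replicated, animals or cultures, so the p-values here measure only the spread between these libraries. Age and sex of the mice are not given in the sources used here.

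When medium or its solutes change, cultured cells usually respond in waves. Immediate early genes are transcribed first, from preformed factors such as SRF and CREB. Feedback inhibitors of the ERK kinase cascade follow and shut the first wave down. ATF4 is a transcription factor whose protein is made when amino acids run short or the endoplasmic reticulum is stressed, and it raises amino acid transporters, biosynthetic enzymes and tRNA synthetases. Slower programs, among them sterol synthesis under SREBP2, respond over hours. A difference of differences shows which of these had an unequal PNU effect at the 2 times.

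Library totals ran from 44332013 to 66518799 counts, and 3 counts, the floor of detection, equal 0.0451 to 0.0677 CPM (counting error only). The 3 libraries of a group were unequally spaced. Replicates 2 and 3 of PNU at 2 h, replicates 2 and 3 of PNU at 6 h, and all 3 of DMSO at 6 h differed by a pairwise biological coefficient of variation of only 0.0163 to 0.0222, against 0.140 to 0.362 in the other pairs. Their counts differed by more than counting noise (chi-square of 2.14 to 3.63 per degree of freedom), which does not tell separate cultures from repeat libraries of 1 culture. They were fitted as separate libraries, as labelled, and results with such libraries summed are given beside them. Another 2 libraries stood apart from their label: replicate 3 of the early DMSO group was closest to a PNU library (replicate 1 of that time), and replicate 1 of the late PNU group was closest to a DMSO library (replicate 1 of that time). That PNU library at 2 h was in turn nearer to replicate 3 of DMSO at 2 h (distance 0.222) than to its own group on average (0.321). Replicates 1 and 2 of DMSO at 2 h were nearer to a DMSO library at 6 h (0.288 and 0.196) than to their own group on average (0.502 and 0.474). These set 1 nearest library against a group mean, and for DMSO at 2 h that mean includes replicate 3. The main programs below are therefore also described without the 2 libraries that stood apart. Some other results also change without those 2 libraries. They were picked by their expression distances, so larger counts of calls without them are a description and no added support.

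Cultures also differed in identity markers. The Y-linked gene Ddx3y was at 2.23, 0.087 and 0.015 CPM in PNU at 2 h, 0.0338, 0.0386 and 5.0 CPM in DMSO at 2 h, 0.141, 7.43 and 6.74 CPM in PNU at 6 h, and at most 0.141 CPM in DMSO at 6 h. The summed level of 10 eye-field and lens genes, a list chosen after values were seen, was 2.17, 49.9 and 51.3 CPM in PNU at 2 h and 1.81, 48.0 and 48.5 CPM in PNU at 6 h, and 0.888 to 1.32 CPM in all 6 DMSO libraries. So replicates 2 and 3 of both PNU groups were high in these transcripts, and replicate 1 of both was low, though above the DMSO libraries. Differences between cultures and effects of PNU cannot be told apart where they coincide, and in bulk RNA fewer cells of a type and less RNA per cell look alike. Of the glial markers, Vim was at 6063 to 7451 CPM and Glul at 61.5 to 94.4 CPM, while Gfap was at most 0.326 CPM and Rlbp1 at most 0.302 CPM. Fibroblast markers were abundant, with Col1a1 at 3509 to 4895 CPM. Rpe65, a defining RPE marker, was at most 0.0442 CPM, below the floor. Sox9 was at 63.4 to 292 CPM, and the reprogramming factor Lin28a had no count in any library.

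The difference test called 6 of the 13144 genes (0.0456%; edgeR quasi-likelihood test, Benjamini-Hochberg adjusted p under 0.05), 3 with a more positive effect at 6 h and 3 with a more negative one (0.0228% each way). At an unadjusted p under 0.05 there were 1601 (12.2%), 809 positive (6.15%) and 792 negative (6.03%). The effect averaged over both times was called for 1501 genes (11.4%), 722 higher (5.49%) and 779 lower (5.93%). The median absolute log2 fold change was 0.24 at 2 h and 0.15 at 6 h. Genes past 1.5-fold numbered 2155 (16.4%) at 2 h and 1267 (9.64%) at 6 h. The spread also differed: DMSO pairs had a coefficient of variation of 0.152 to 0.362 at 2 h and 0.0163 to 0.0217 at 6 h. Replicate 1 of PNU at 6 h was nearer to a DMSO library (0.309) than to its own group on average (0.494). Whether PNU effects were larger early was not tested. Across genes, which are not independent, the effects at the 2 times had a Pearson r of 0.59 (Spearman 0.523) over the 13144 genes, given as a description. Without both libraries that stood apart the difference test called 3847 genes (29.3%), 1932 of them negative (14.7%), and with near-identical libraries summed to 1 it called 0 (137 at an unadjusted p under 0.05).

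**Figure D1:**
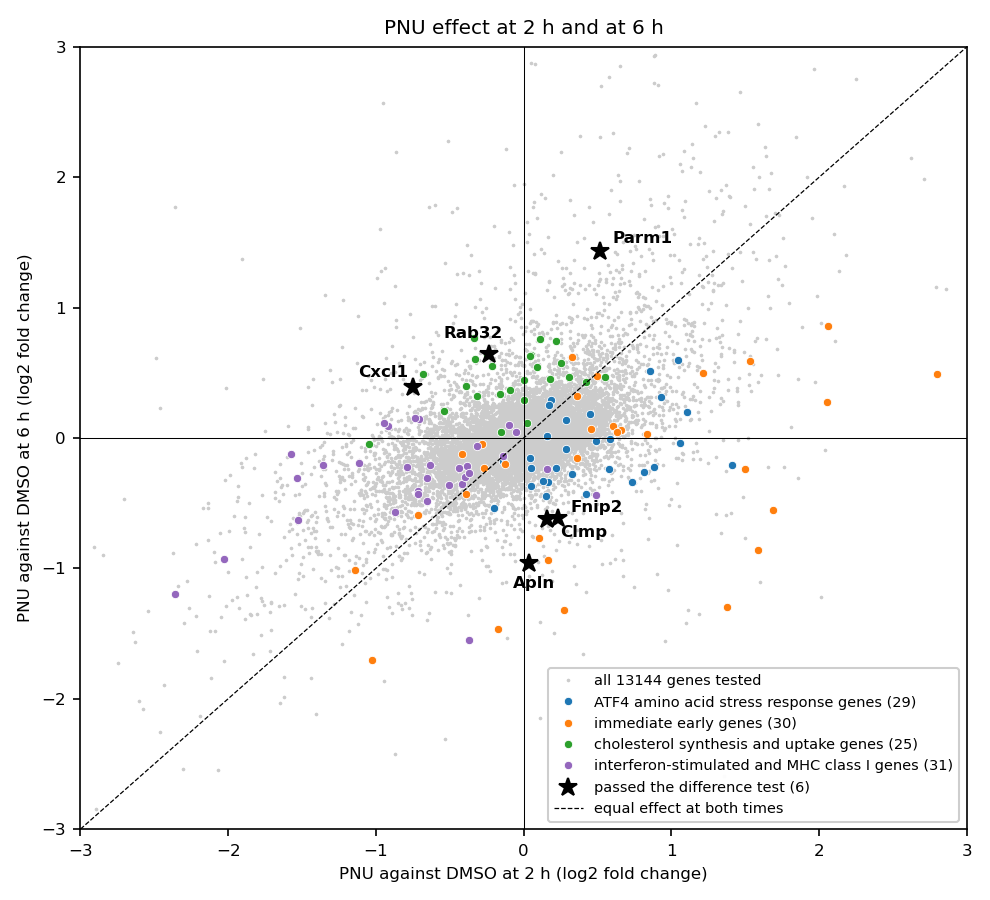
Log2 fold change of PNU against DMSO at 2 h (x axis) and at 6 h (y axis), 1 point per gene for all 13144 genes, with 97 genes outside the axes and the dashed line marking equal effects. The ATF4 and immediate early genes lie mostly to the right of and below the line, the cholesterol genes above it, and the 6 genes that passed the difference test are starred.

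Among those 6, the effect was late in 5 and early in 1. Late means past 1.5-fold at 6 h but not at 2 h, and early means the opposite. No called gene had opposite effects past 1.5-fold at both times.

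Cxcl1 (chromosome 5), a chemokine that attracts neutrophils, was the early one. It stood at 15.4, 13.5 and 12.9 CPM in PNU and 25.6, 26.6 and 20.5 CPM in DMSO at 2 h, and at 38.9, 39.1 and 39.0 CPM in PNU and 30.4, 29.9 and 30.6 CPM in DMSO at 6 h. PNU libraries were thus all below DMSO at 2 h and all above it at 6 h. The log2 fold change was -0.75 ± 0.10 (SE) at 2 h and 0.39 ± 0.10 at 6 h, a difference of 1.14 ± 0.15 (n = 3 per group, edgeR adjusted p = 0.0357). Cxcl1 is a classical NF-kappaB target, and its promoter carries a match to that factor's site. The stretch is shown because it holds the only such site among the 5 called genes with a RefSeq promoter window (250 bases before to 50 after the start). It lies at chr5:90891129-90891228 on the + strand of GRCm38.p6, upstream of the start, and capitals mark the NF-kappaB motif, searched on both strands and chosen after the files were seen:
Cxcl1: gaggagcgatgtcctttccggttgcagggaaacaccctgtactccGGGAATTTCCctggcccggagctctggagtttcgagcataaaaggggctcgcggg
That motif is in 0.456% of the windows of 9869 tested genes. The list of NF-kappaB subunits, feedback inhibitors and target genes did not follow Cxcl1. Its medians were 0.16 and 0.05, and 12 of 19 differences were negative, whereas 53.7% of all genes had a positive one. Its summed level at 2 h was 1685 to 1802 CPM in PNU and 1106 to 1605 CPM in DMSO. At 6 h it was 1046 to 1092 CPM in PNU and 1146 to 1164 CPM in DMSO, the opposite order to Cxcl1. Summed leukocyte markers, whose genes Ptprc, Aif1, Itgam and Tyrobp were each at most 0.235 CPM, were at 258 to 320 CPM in PNU and 315 to 369 CPM in DMSO at 2 h, and at 168 to 371 CPM and 356 to 364 CPM at 6 h, nearly all of it Tmem119; their part in the Cxcl1 result was not tested.

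Clmp (chromosome 9), an adhesion molecule of epithelial junctions, was at 55.4, 64.6 and 61.3 CPM (PNU) and 53.1, 59.5 and 54.9 CPM (DMSO) at 2 h, and at 43.6, 42.2 and 42.1 CPM (PNU) and 65.6, 65.0 and 69.2 CPM (DMSO) at 6 h. The groups overlapped at 2 h and were apart at 6 h. Its effect fell by 0.78 ± 0.09 on the log2 scale, from 0.16 to -0.62 (edgeR adjusted p = 0.0357).

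Apln (chromosome X) encodes apelin, a secreted peptide that acts on vascular cells. Its PNU libraries held 22.7, 27.8 and 26.5 CPM and its DMSO libraries 24.4, 25.2 and 27.6 CPM at 2 h, whereas at 6 h they held 16.5, 14.9 and 14 CPM and 30.1, 29.7 and 30 CPM. The effect was 0.04 at 2 h and -0.96 at 6 h, with a difference of -1.0 ± 0.13. Fnip2 (chromosome 3), a folliculin partner in nutrient sensing at the lysosome, showed the same order: 22.4, 24.2 and 23.2 CPM against 19.2, 22.9 and 19.3 CPM at 2 h, then 12.7, 12.6 and 12.1 CPM against 18.1, 20.2 and 19.9 CPM at 6 h. Its difference was -0.85 ± 0.11. Both had the same edgeR adjusted p of 0.0357.

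Rab32 (chromosome 10), a small GTPase of melanosome and lysosome-related organelle transport, went the other way. PNU held 20.4, 20.5 and 20.6 CPM and DMSO 24.5, 27.5 and 22.8 CPM at 2 h, and 35.8, 39.0 and 40.2 CPM against 24.4, 24.8 and 25.7 CPM at 6 h. The effect was -0.24 at 2 h and 0.64 at 6 h, a difference of 0.88 ± 0.11. Parm1 (chromosome 5), a mucin-like membrane protein, was above DMSO at both times: 33.0, 31.5 and 30.2 CPM against 21.7, 22.2 and 24.6 CPM at 2 h, and 78.9, 67.3 and 67.1 CPM against 27.8, 26.5 and 26.1 CPM at 6 h. Its effect grew from 0.51 to 1.43, a difference of 0.92 ± 0.13. The edgeR adjusted p was 0.0357 for each.

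Directions of these 6 differences were the same in all 26 alternatives tried, and each call was kept in 12 to 15 of them. Without the 2 libraries that stood apart, 29.3% of all genes were called, so calls kept there are no added support. All 6 calls remained in that setting (the highest edgeR adjusted p, for the Fnip2 difference, was 0.000423). They were lost with near-identical libraries summed (adjusted p = 1.00), with the replicate number as a block (adjusted p from 0.0525 for the Clmp difference to 0.0658 for the Apln difference), against a minimum fold of 1.2 (adjusted p = 0.113), and when replicate 2 or 3 of either PNU group, replicate 2 of DMSO at 2 h or any DMSO library at 6 h was left out (0 genes called each time).

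**Figure D2:**
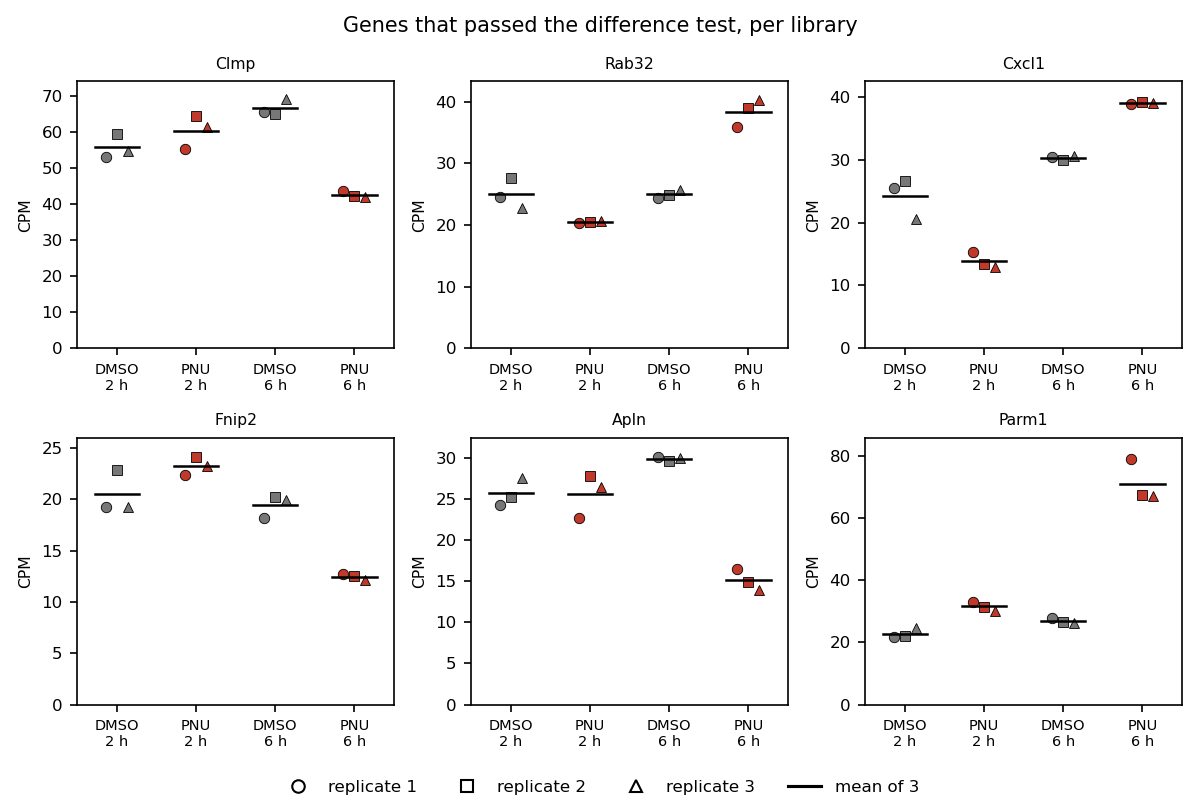
CPM (y axis, from 0) in the 12 libraries for the 6 genes that passed the difference test, grey for DMSO and red for PNU, with the replicate number by marker shape and the mean as a bar. In Cxcl1 the PNU libraries are all below DMSO at 2 h and all above it at 6 h, and in Apln, Clmp and Fnip2 the PNU libraries at 6 h stand apart below the other 9.

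The next 14 genes by p (edgeR adjusted p from 0.0507 to 0.075) did not pass, and their values are given as such. On the negative side were Aldh18a1 (proline synthesis, difference -0.59 ± 0.09), Spry4 (ERK feedback inhibitor, -1.29 ± 0.20), Egr1 (immediate early factor, -1.59 ± 0.27), Ptges (prostaglandin E synthase, -1.17 ± 0.20), Lama5 (a laminin chain, -1.01 ± 0.16) and Ank3 (ankyrin G, -2.27 ± 0.38). Trim25, Swap70, Atxn1 and the tRNA synthetases Yars and Cars were on the same side, the last 2 given with their family below. On the positive side were Sema5b, a semaphorin (1.51 ± 0.22), 1190002N15Rik (0.74 ± 0.11) and Magi3 (0.59 ± 0.10). Lama5 held 104, 103 and 109 CPM against 77.3, 61.8 and 76.1 CPM at 2 h, and 81.1, 65.3 and 69.6 CPM against 100.2, 95.7 and 97.3 CPM at 6 h, so its PNU libraries were all above DMSO at 2 h and all below it at 6 h. Sema5b was at 2.08, 1.96 and 1.61 CPM against 1.2, 1.18 and 1.17 CPM at 2 h and at 3.41, 3.11 and 2.92 CPM against 0.722, 0.643 and 0.687 CPM at 6 h, above DMSO at both times, and rose on average by 1.47 ± 0.11 (edgeR adjusted p = 0.000408).

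Programs were then sorted by the median log2 fold change of their tested members at each time, relative to the median of all genes, with a bound of 0.2. Of 33 gene lists that are not cell or culture markers, 10 were early only, 5 late only, 6 sustained, 0 reversed and 12 neither. The marker list of 4 Y-linked genes and Xist was the only list classed reversed, with a median of -1.02 at 2 h and 5.94 at 6 h. This sorting is a description with no test, and no list but the chemokines, by Cxcl1, held a gene that passed the difference test. Because the lists were chosen with earlier results of these data known, their counts set against all genes are no independent support. Without both libraries that stood apart there were 9 early, 3 late, 10 sustained and 2 reversed, of which 6, 1, 6 and 0 had that class with all libraries.

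**Figure D3:**
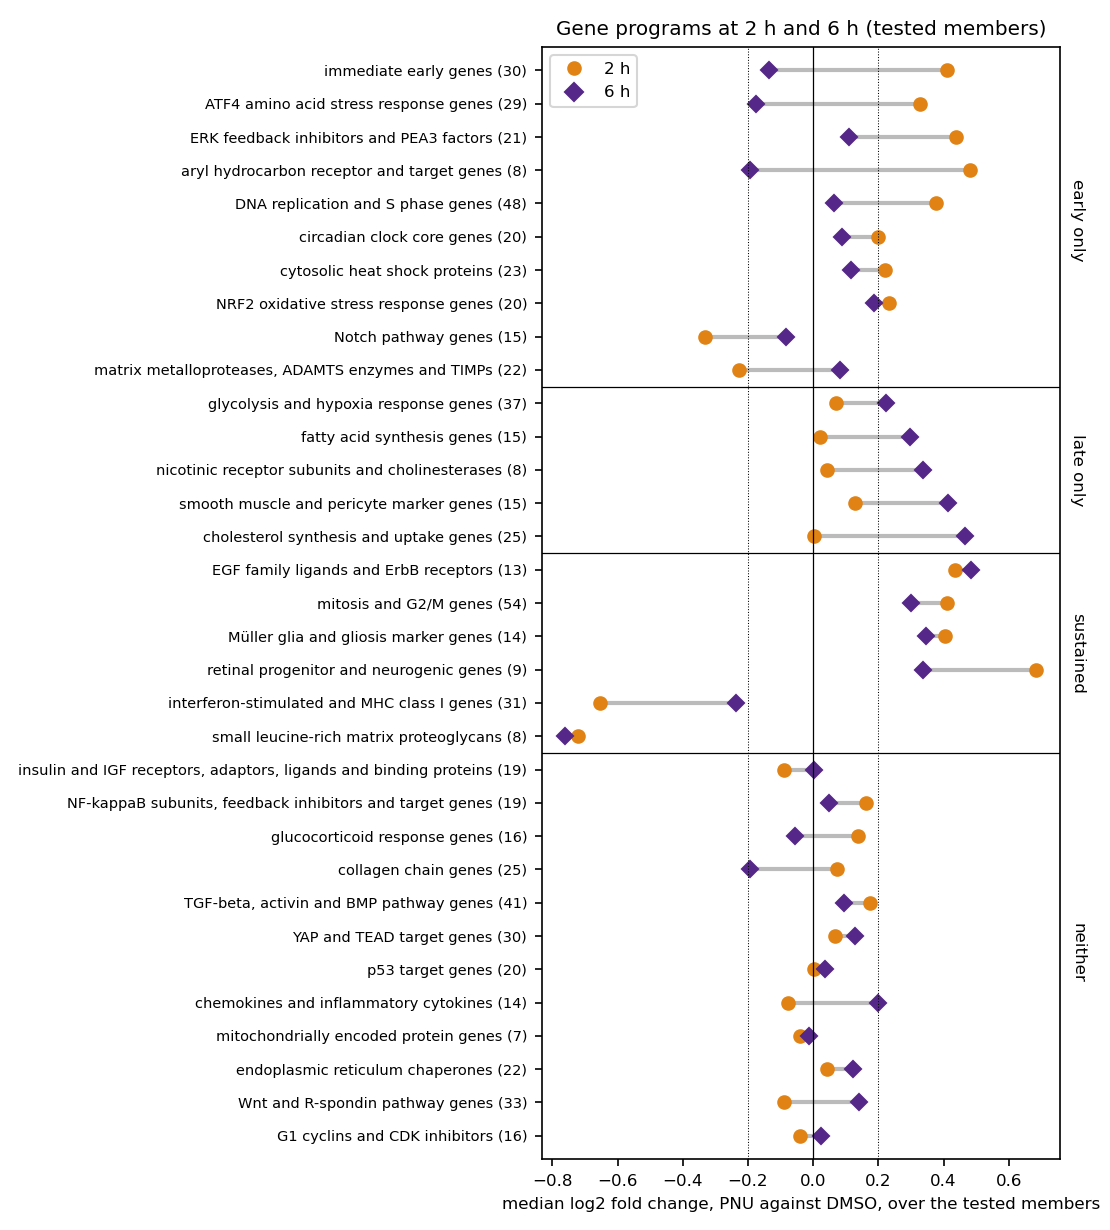
Median log2 fold change of PNU against DMSO (x axis) at 2 h (circles) and 6 h (diamonds) for 33 gene lists, with the number of tested members in parentheses and dotted lines at the bound of 0.2. Lists are grouped by class, and the grey bars are longest for immediate early, ATF4 and aryl hydrocarbon receptor genes (leftward from 2 h to 6 h) and for cholesterol genes (rightward).

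The ATF4 response was early only. Its 29 tested members (of 30) had a median of 0.33 at 2 h and -0.18 at 6 h, and 27 of the 29 had a negative difference, whereas 53.7% of all genes had a positive one. At an unadjusted p under 0.05, 17 of 29 were negative and 0 positive, where 6.03% of all genes were negative. None passed the adjusted test. In 7 of the 29, all PNU libraries were above all DMSO libraries at 2 h and below them at 6 h, which held for 1.26% of all genes. The reverse order held for 0 of 29 (0.89% of all genes), PNU above DMSO at both times for 2 (2.91%) and below at both for 0 (6.25%). Over time the median change from 2 h to 6 h was -0.20 in DMSO and -0.70 in PNU.

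Several ATF4 targets carry a match to the factor's binding site just upstream of their start. These 5 stretches are shown because the genes include transporters, enzymes and synthetases of the program. RefSeq windows existed for 25 tested members. TGATGCAAT, searched on both strands, was in 3 of 25 (12%) against 0.132% of 9869 tested genes, and TGATGNAAN, a wider form chosen after the files were seen that contains the first, was in 9 of 25 (36%) against 2.61%. Capitals mark TGATGNAAN or its reverse complement in GRCm38.p6.
Chac1: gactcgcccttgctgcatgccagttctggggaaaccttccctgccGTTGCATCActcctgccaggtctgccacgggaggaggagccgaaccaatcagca
Slc7a11: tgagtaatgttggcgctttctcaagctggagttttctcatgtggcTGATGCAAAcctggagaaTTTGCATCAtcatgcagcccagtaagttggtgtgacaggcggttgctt
Asns: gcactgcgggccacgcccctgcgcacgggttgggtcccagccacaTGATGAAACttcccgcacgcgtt
Gars: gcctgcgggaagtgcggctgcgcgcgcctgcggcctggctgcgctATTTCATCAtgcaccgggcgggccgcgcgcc
Aars: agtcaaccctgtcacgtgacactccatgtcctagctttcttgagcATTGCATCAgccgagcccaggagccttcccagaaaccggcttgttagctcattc
Chac1 is at chr2:119351003-119351101 (+), Slc7a11 at chr3:50443614-50443724 (-), Asns at chr6:7693210-7693277 (-), Gars at chr6:55037925-55038000 (+) and Aars at chr8:111033684-111033782 (+), each 5′ to 3′ on the gene's strand. A match is a description and not a measured site.

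Of the regulators, Atf4 itself stood at 333, 325 and 315 CPM in PNU and 248, 242 and 310 CPM in DMSO at 2 h. Later, at 6 h, the values were 229, 193 and 189 CPM in PNU and 252, 249 and 252 CPM in DMSO. PNU libraries were above DMSO at 2 h and below it at 6 h, with a difference of -0.60 ± 0.15 (edgeR adjusted p = 0.181). Its partner Cebpb had a difference of -1.07 ± 0.27 (adjusted p = 0.176 by edgeR). Ddit3 and Trib3, which act in the later, pro-apoptotic arm, had differences of -0.26 ± 0.34 and -0.91 ± 0.43.

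Amino acid transporters were among the members with high early values. Slc7a5, which imports large neutral amino acids, was at 260, 241 and 248 CPM (PNU) and 127, 113 and 199 CPM (DMSO) at 2 h, and at 95.7, 89.4 and 90.8 CPM (PNU) and 109, 114 and 113 CPM (DMSO) at 6 h. Its effect was 0.81 at 2 h and -0.26 at 6 h (difference -1.07 ± 0.24, edgeR adjusted p = 0.142). The cystine carrier Slc7a11 was at 21.5, 24.4 and 22.9 CPM against 6.99, 8.76 and 18.2 CPM at 2 h, and its groups overlapped at 6 h (difference -1.10 ± 0.39). The cationic carrier Slc7a1 had a difference of -1.10 ± 0.37. In all 3 carriers the DMSO library at 2 h that was near the PNU libraries was replicate 3.

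Enzymes of one-carbon metabolism had values of the same order. Mthfd2, a mitochondrial folate enzyme, held 129, 120 and 122 CPM in PNU against 81.7, 86.8 and 117 CPM in DMSO at 2 h, then 62.1, 58.8 and 57.7 CPM against 82.3, 80.4 and 81.6 CPM at 6 h. The difference was -0.85 ± 0.17 (edgeR adjusted p = 0.0948), with PNU entirely above DMSO early and entirely below it late. Shmt2, its neighbour in the folate cycle, had -0.81 ± 0.25 and Asns, asparagine synthetase, -0.42 ± 0.13. Chac1, which degrades glutathione, had a difference of -1.62 ± 0.40, from 78.8, 77.9 and 75.4 CPM against 24.7, 20.4 and 44.6 CPM at 2 h to 29.7, 16.4 and 18.2 CPM against 26.8, 24.0 and 24.7 CPM at 6 h (edgeR adjusted p = 0.171).

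Not all members followed. Phgdh, the first enzyme of serine synthesis, had a difference of 0.11 ± 0.17 and Psat1, the next, -0.51 ± 0.41. Ddit4, an inhibitor of mTORC1, and the stress genes Nupr1 and Gdf15 were positive at both times (0.93 and 0.32 for Ddit4, 1.05 and 0.60 for Nupr1, 0.85 and 0.52 for Gdf15) and passed the test of the average effect (edgeR adjusted p = 0.0138, 0.0367 and 0.0413). These 3 of 29 rose on average, where 5.49% of all genes did.

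**Figure D4:**
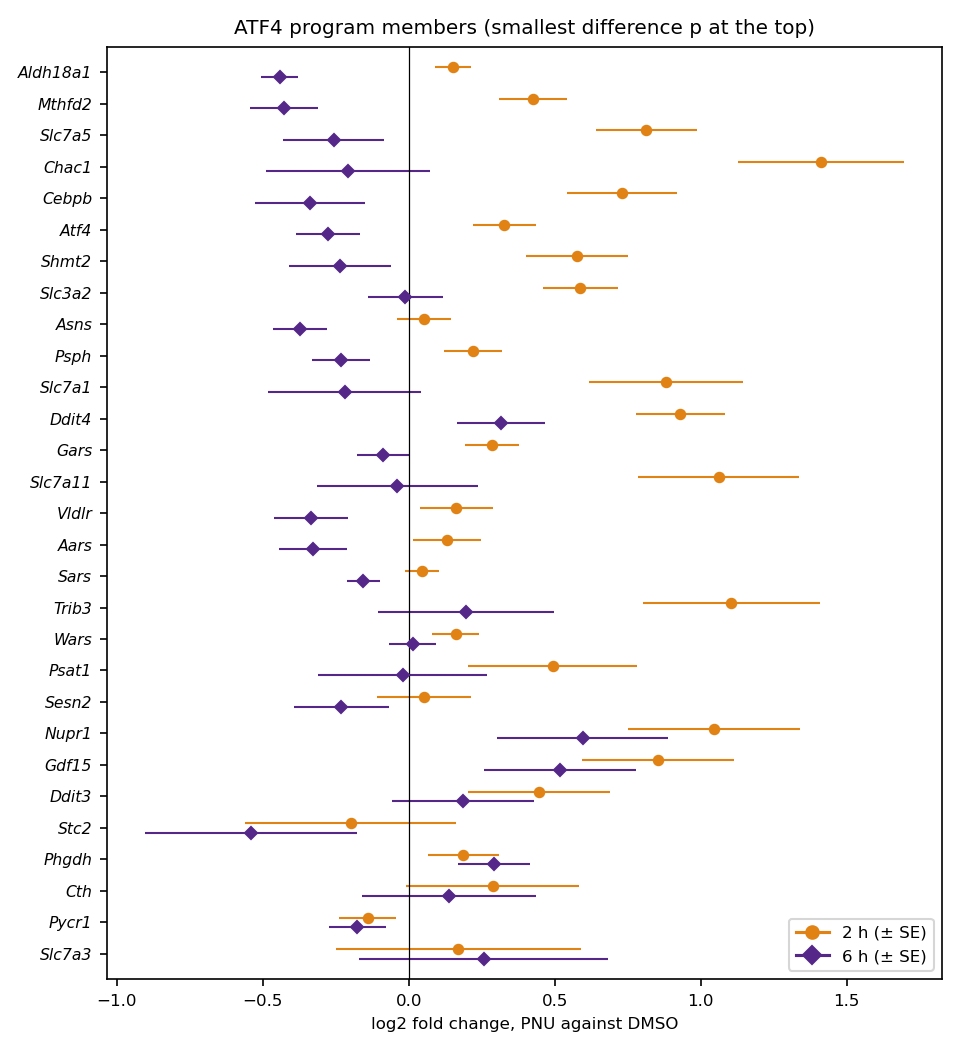
Log2 fold change of PNU against DMSO (x axis, ± SE from the fit, n = 3 per group) at 2 h (circles) and 6 h (diamonds) for the 29 tested ATF4 program members, ordered by the p of the difference. In 27 of them the 6 h value is the lower one, and Phgdh and Slc7a3 are the exceptions.

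Cytosolic aminoacyl-tRNA synthetases, which charge tRNAs and are ATF4 targets in part, were listed after Yars and Cars had been seen near the top, so their counts are no independent support. Of 20 tested, 18 had a negative difference, whereas 53.7% of all genes had a positive one. At an unadjusted p under 0.05, 12 were negative, where 6.03% of all genes were. The list shares members with the ATF4 list, among them Aars and Gars, so it is not a separate result. Their summed level was 3738, 3690 and 3688 CPM in PNU and 3066, 3137 and 3722 CPM in DMSO at 2 h, and 2722, 2706 and 2723 CPM in PNU and 2999, 3032 and 3015 CPM in DMSO at 6 h. At 6 h every PNU library was below every DMSO library, and at 2 h only DMSO replicate 3 reached the PNU range. Cars was at 164, 168 and 170 CPM against 135, 126 and 152 CPM at 2 h and at 97.7, 99.6 and 99.1 CPM against 126, 125 and 125 CPM at 6 h (difference -0.64 ± 0.11, edgeR adjusted p = 0.075). Like Cars, Yars (-0.51 ± 0.09), Mars (-0.42 ± 0.10), Iars (-0.61) and Gars (-0.37 ± 0.13) had all PNU libraries above DMSO at 2 h and below it at 6 h. No other of the 20 did, and 1.26% of all genes did. Without the 2 libraries that stood apart, 13 of the 20 passed the difference test, all negative, as did 14.7% of all genes.

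The same exclusion raised the ATF4 count to 22 of 29 called, all negative (14.7% of all genes), with medians of 0.61 at 2 h and -0.21 at 6 h, and moved the program to the reversed class. With near-identical libraries summed instead, 0 were called and 5 of 29 were negative at an unadjusted p under 0.05 (0.7% of all genes). By library, the mean log2 level of the 29 members was 6.52, 6.47 and 6.47 in PNU at 2 h and 5.85, 5.73 and 5.70 in PNU at 6 h. In DMSO it was 5.90, 5.84 and 6.38 at 2 h and 5.90, 5.89 and 5.88 at 6 h. Replicate 1 of PNU was with replicates 2 and 3 at 2 h, but at 6 h it was nearer to DMSO than to them.

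Immediate early genes formed the second early-only program. Their 30 tested members had a median of 0.41 at 2 h and -0.14 at 6 h, 24 had a negative difference, and 11 of those had an unadjusted p under 0.05 against 6.03% of all genes. Without both libraries that stood apart, 20 of the 30 were called negative (14.7% of all genes) and 2 positive, and the class stayed early only. With near-identical libraries summed, 0 were called and 4 were negative at an unadjusted p under 0.05 (0.7% of all genes). Among the members named here, some were PNU-high at 2 h, with PNU far above DMSO replicates 1 and 2 at 2 h. Nr4a1, an orphan nuclear receptor, held 906, 670 and 679 CPM in PNU and 55.4, 48.9 and 453 CPM in DMSO at 2 h, then 116, 98.9 and 99.5 CPM against 89.8, 87.1 and 87.5 CPM at 6 h. DMSO replicate 3 was far above its group there, though below the PNU libraries, and the difference of -1.78 ± 0.95 did not pass (edgeR adjusted p = 0.471).

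Ier3 and Fosb, both induced by growth factors, had all PNU libraries above DMSO at 2 h and below it at 6 h. Ier3 was at 194, 155 and 144 CPM against 35.1, 32.2 and 112 CPM at 2 h and at 37.6, 38.2 and 38.2 CPM against 45.1, 45.2 and 46.8 CPM at 6 h (difference -1.74 ± 0.55). Fosb had a difference of -2.24 ± 0.77 and Egr3 -2.45 ± 0.84. Egr2, a zinc finger factor of the same wave, had an effect of 1.38 at 2 h and -1.30 at 6 h (difference -2.67 ± 0.75, edgeR adjusted p = 0.214). Its promoter is shown because the CArG box, the core of the serum response element that SRF binds, is within the window; capitals mark it at chr10:67537449-67537548 (+, GRCm38.p6):
Egr2: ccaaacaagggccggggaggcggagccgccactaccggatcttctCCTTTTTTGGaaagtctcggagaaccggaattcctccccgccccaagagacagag
A CArG box was in 3 of 23 windows of the program (13%) against 1.59% of tested genes, both strands searched.

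In others the 2 h groups were close and PNU was low at 6 h. Across the 30, PNU was above DMSO at 2 h and below it at 6 h without overlap in 4 (1.26% of all genes). The reverse order held for 0 (0.89%). PNU was above DMSO at both times in 4 (2.91%) and below it at both in 5 (6.25%). Ier2 was at 141, 101 and 101 CPM against 152, 121 and 127 CPM at 2 h, and at 73.0, 49.0 and 50.4 CPM against 164, 161 and 160 CPM at 6 h. Its effect was -0.17 at 2 h and -1.47 at 6 h (difference -1.29 ± 0.26, edgeR adjusted p = 0.108). Egr1 was at 282, 216 and 225 CPM against 202, 193 and 222 CPM, then 124, 73.0 and 73.8 CPM against 230, 228 and 229 CPM, with effects of 0.28 and -1.32. Ier2 fell on average by 0.82 ± 0.13 (edgeR adjusted p = 0.0119). Fos, one of those 5, was lower at both times, 24.3, 23.7 and 22.8 CPM against 60.3, 58.5 and 30.2 CPM and 25.1, 16.5 and 15.3 CPM against 60.0, 64.5 and 64.1 CPM. Fos fell on average by 1.37 ± 0.17 (edgeR adjusted p = 0.00505), and its difference of -0.68 ± 0.34 did not pass.

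ERK feedback inhibitors had a median of 0.44 at 2 h and 0.11 at 6 h over 21 tested members, 17 with a negative difference and 4 of them at an unadjusted p under 0.05 (6.03% of all genes), or 1 with near-identical libraries summed (0.7%). Spry4 was at 27.1, 18.6 and 19.6 CPM in PNU against 18.9, 20.9 and 19.4 CPM in DMSO at 2 h, and at 9.40, 11.4 and 12.0 CPM against 24.0, 24.4 and 23.0 CPM at 6 h. Its groups overlapped early and were apart late (edgeR adjusted p = 0.058). Dusp5, a nuclear ERK phosphatase, was of the opposite kind, with 231, 165 and 172 CPM against 21.7, 19.8 and 135 CPM at 2 h and an effect of 1.72 ± 0.61 that was 0.49 ± 0.60 at 6 h. Errfi1, an inhibitor of the EGF receptor, had an effect of 1.37 at 2 h and -0.25 at 6 h. Hbegf, an EGF receptor ligand, had 1.67 ± 0.62 and 1.0 ± 0.61, and Atf3, a stress-induced factor, rose on average by 1.46 ± 0.35 (adjusted p = 0.0322 by edgeR) with a difference of -1.2 ± 0.69. Dusp6 fell on average by 0.53 ± 0.08 and Spry1 by 1.02 ± 0.21 (edgeR adjusted p = 0.0115 and 0.0218). Without PNU at 6 h replicate 1 the program was sustained, with 0.25 at 6 h. It was sustained without both libraries that stood apart as well (0.65 and 0.25). There 13 of the 21 were called negative (14.7% of all genes) and 2 positive.

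Other early-only lists were the DNA replication genes (0.38 and 0.06) and the aryl hydrocarbon receptor list (0.48 and -0.19 over 8). The heat shock proteins (0.22 and 0.12), the clock genes (0.20 and 0.09) and the NRF2 genes (0.23 and 0.19) were early only too. Of the DNA replication genes, 43 of 48 had a negative difference, 1 at an unadjusted p under 0.05 where 6.03% of all genes were. Without both libraries that stood apart, 27 of these 48 were called, all negative, where 14.7% of all genes were. In that setting the NRF2 genes were sustained (0.54 and 0.30). Notch pathway genes (-0.33 and -0.08) and matrix proteases (-0.23 and 0.08) were early on the negative side. Summed, the aryl hydrocarbon receptor list was below DMSO at both times, 235 to 250 against 269 to 324 CPM, then 217 to 228 against 289 to 295 CPM. Of its 8 members, 5 were positive at 2 h, and 2 passed the average test, both lower (5.93% of all genes). Its class was reversed without both libraries that stood apart (0.93 and -0.27) and without PNU at 6 h replicate 1 (0.48 and -0.27). With near-identical libraries summed it was reversed too (0.49 and -0.24). Cyp1a1, the standard target of the aryl hydrocarbon receptor, was at 2.94, 2.15 and 1.98 CPM against 1.27, 1.37 and 2.41 CPM at 2 h and at 0.545, 0.187 and 0.110 CPM against 1.42, 1.15 and 1.66 CPM at 6 h (difference -2.84 ± 0.65, edgeR adjusted p = 0.146). The replication score followed single libraries: DMSO at 2 h replicate 3 was the highest of all 12 at a mean log2 level of 5.12, and PNU at 6 h replicate 1 the lowest at 4.11.

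**Figure D5:**
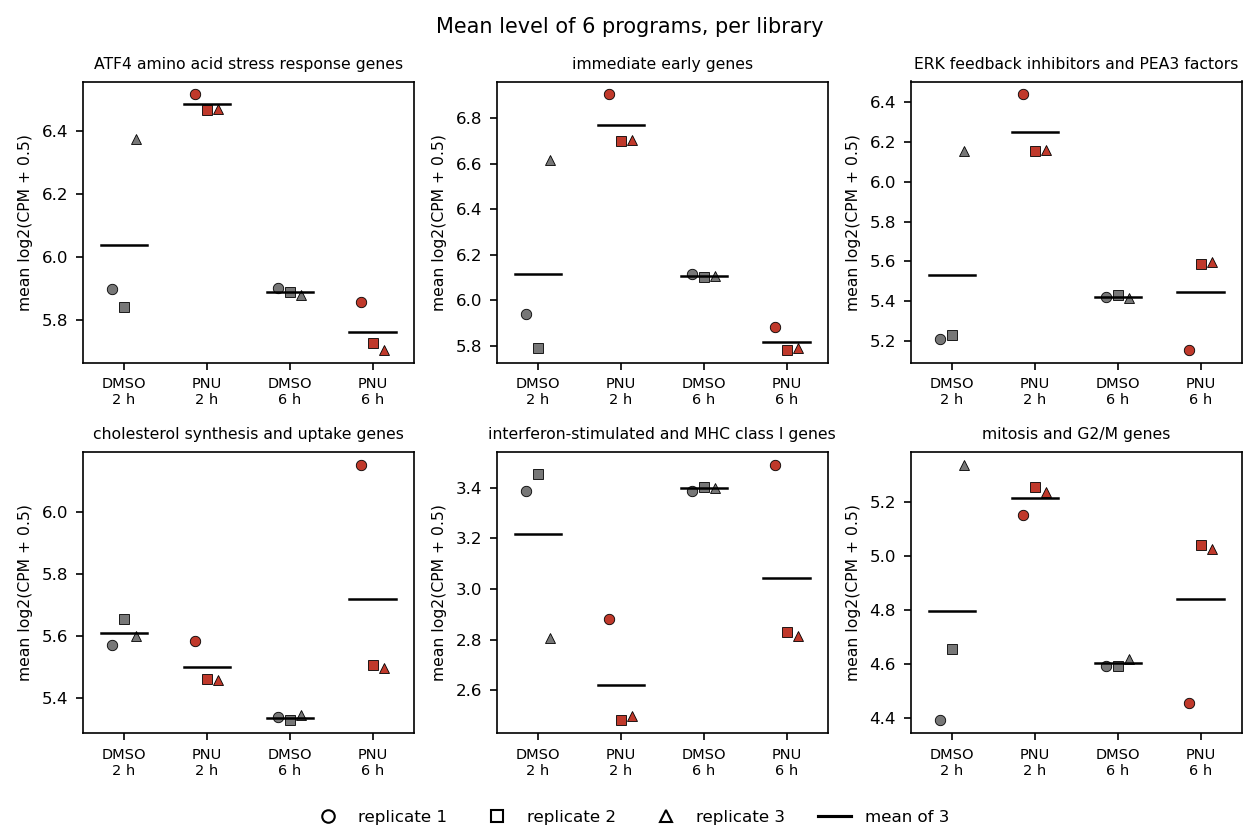
Mean log2(CPM + 0.5) over the tested members of 6 programs (y axis, not starting at 0) in each of the 12 libraries, grey for DMSO and red for PNU, with marker shape for the replicate and a bar for the mean of 3. DMSO at 2 h replicate 3 lies near the PNU libraries of that time in 5 of the 6 panels, and PNU at 6 h replicate 1 stands alone at the top of the cholesterol panel at 6.15.

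Cholesterol synthesis and uptake genes were the main late-only program. Of 25 tested, 24 had a positive difference, against 53.7% of all genes, and 9 had an unadjusted p under 0.05, against 6.15%. The median was 0.00 at 2 h and 0.47 at 6 h. Over time it was -0.36 in DMSO and 0.23 in PNU. Fdps, which makes farnesyl diphosphate, was at 41.3, 38.7 and 39.0 CPM in PNU and 56.6, 54.9 and 43.5 CPM in DMSO at 2 h, and at 91.8, 57.6 and 54.8 CPM against 40.4, 41.1 and 41.1 CPM at 6 h. PNU was below DMSO early and above it late, a difference of 1.10 ± 0.25 (edgeR adjusted p = 0.142). Acat2, an acetyl-CoA acetyltransferase, and Nsdhl, a demethylating enzyme of the same pathway, did the same without overlap (0.79 ± 0.19 and 0.94 ± 0.26). That order held for 3 of the 25 and for 0.89% of all genes.

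A single library had much of the high late level. Hmgcs1, the HMG-CoA synthase at the start of the pathway, was at 188 CPM in PNU at 6 h replicate 1 and at 94.1 and 89.3 CPM in the other 2, against 86.6, 83.5 and 89.8 CPM in DMSO. Its difference of 0.45 ± 0.35 did not pass and was -0.12 without both libraries that stood apart. Without PNU at 6 h replicate 1 the program's median at 6 h was 0.19 and its class neither, although 20 of 25 differences were positive and 2 passed the test, as did 0.396% of all genes. The class was neither without both libraries that stood apart as well (-0.06 and 0.19). There 8 of the 25 were called positive and 3 negative, where 29.3% of all genes were called in either direction. A sterol response element, searched on both strands, was in 0 of 18 windows and in 0.203% of tested genes, which says nothing of sites outside the window.

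Fatty acid synthesis genes (0.02 and 0.30, 15 tested) and glycolysis and hypoxia genes (0.07 and 0.22, 37 tested) were late only as well, and both were neither without that library (0.18 and 0.09 at 6 h). Pgk1, a glycolytic kinase, rose on average by 0.46 ± 0.09 (edgeR adjusted p = 0.021), with effects of 0.31 and 0.62. The list of nicotinic receptor subunits and cholinesterases (0.04 and 0.34) rested on 8 of 21 genes, and Chrna7, the receptor PNU acts on, was below the filter in these glia at 0.0676 to 0.611 CPM. Smooth muscle and pericyte markers were 0.13 at 2 h and 0.41 at 6 h over 15 genes and stayed late only without that library (0.30), but were sustained without DMSO at 2 h replicate 3 (0.39 at 2 h). Mcam, a pericyte adhesion molecule, was at 162, 153 and 155 CPM against 158, 144 and 163 CPM at 2 h and at 196, 209 and 210 CPM against 151, 150 and 150 CPM at 6 h (difference 0.42 ± 0.10, edgeR adjusted p = 0.179). Tagln and Cnn1, actin-binding proteins of smooth muscle, rose on average by 0.53 ± 0.14 and 0.80 ± 0.15 (adjusted p = 0.0378 and 0.0193 by edgeR). Whether cell composition had a part in this was not tested.

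The sustained class held 423 genes (3.22%) that passed the average test, had the same sign past 1.5-fold at both times and an unadjusted p of the difference of at least 0.05, of which 213 were higher and 210 lower. The rule for named genes takes the 6 of largest average effect, and all 6 were low, at most 0.331 CPM, in replicate 1 of PNU. The floor in those libraries was 0.0663 CPM at 2 h and 0.0527 CPM at 6 h. Sox2 and Cryaa were above the floor in both, and above every DMSO library of the same time. Sox2, a progenitor factor, was at 0.243, 8.27 and 8.81 CPM in PNU at 2 h and 0.0878, 9.39 and 9.39 CPM in PNU at 6 h, and at most 0.0469 CPM in DMSO. Cryaa, the lens protein alpha-A crystallin, was at 0.199, 11.3 and 10.8 CPM and 0.0703, 8.25 and 9.03 CPM, with at most 0.0338 CPM in DMSO. Six3os1, Zbtb8b, Hmx1 and Shh had the same 2 libraries high at each time. The eye-field factors Pax6 (0.574, 14.9 and 14.9 CPM, then 0.281, 12.2 and 12.6 CPM in PNU) and Six3 followed them. These genes divide the PNU libraries by replicate, not by time.

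Other genes passed the average test with smaller effects, short of 1.5-fold at 1 or both times and so outside that class. Egfr, the EGF receptor, was at 36.5, 32.9 and 32.5 CPM against 21.7, 26.0 and 30.1 CPM at 2 h and at 48.3, 43.3 and 42.6 CPM against 28, 29.5 and 28.4 CPM at 6 h, with no overlap at either time. Egfr rose on average by 0.55 ± 0.08 (edgeR adjusted p = 0.00767), and its difference of 0.23 ± 0.16 did not pass. Smad3, a TGF-beta effector, rose by 0.35 ± 0.05 on average (edgeR adjusted p = 0.00904). Sustained on the list level were EGF family genes (0.44 and 0.48), mitosis genes (0.41 and 0.30, 0 of 54 at an unadjusted p under 0.05), Müller glia markers (0.41 and 0.35), reprogramming genes (0.68 and 0.34, with Sox2, Pax6 and Six3 among the 9 tested) and, on the negative side, interferon-stimulated and MHC class I genes (-0.65 and -0.24) and small leucine-rich proteoglycans (-0.72 and -0.76). By mean log2 level, mitosis genes in PNU at 6 h replicate 1 (4.46) were below every DMSO library of that time (4.59 to 4.62). In DMSO at 2 h replicate 3 (5.34) they were above every PNU library of that time (5.15 to 5.26). Without overlap, PNU was above DMSO at both times in 0 of 54 (2.91% of all genes). With near-identical libraries summed the mitosis medians were 0.41 and 0.19 and the class was early only. Reprogramming genes had mean log2 levels of 3.68, 5.02 and 5.02 in PNU at 2 h and 3.38, 5.14 and 5.14 at 6 h. In DMSO they were at 3.29 to 3.54 and 3.41 to 3.49, so PNU replicate 1 at 6 h was below every DMSO library of that time. Müller glia markers were at 4.58, 5.22 and 5.12, then 4.60, 5.02 and 5.02 in PNU. In DMSO these markers were at 4.30 to 4.40 and 4.43 to 4.47.

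Interferon-stimulated genes were sustained in the sign of their median, which was smaller at 6 h. Of 31 tested, 28 had a positive difference (53.7% of all genes). At an unadjusted p under 0.05, 1 was positive (6.15% of all genes) and 2 were negative (6.03%). Ifit3, an antiviral protein, was at 2.78, 1.96 and 2.06 CPM in PNU and 13.8, 12.3 and 2.53 CPM in DMSO at 2 h, and at 8.57, 5.55 and 5.00 CPM against 12.6, 12.0 and 12.4 CPM at 6 h. It fell on average by 1.48 ± 0.34 (edgeR adjusted p = 0.0289), and its difference was 1.10 ± 0.67 (adjusted p = 0.532 by edgeR). Without PNU at 6 h replicate 1 the list medians were -0.66 and -0.53 and 20 of 31 differences were positive, so the 2 times were then closer. By mean log2 level that library (3.49) was above every DMSO library of that time (3.39 to 3.40), and PNU replicates 2 and 3 were below (2.83 and 2.81). With near-identical libraries summed the list was early only (-0.53 and -0.14).

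Opposite effects past 1.5-fold at both times were seen in 74 genes (0.563%), 25 higher then lower (0.19%) and 49 lower then higher (0.373%), and none passed the difference test. The 49 included 9 Hox genes, which mark position along the body axis, 3 Y-linked genes and Xist. Hoxb9 was at 4.62, 0.196 and 0.316 CPM in PNU and 0.0338, 0.0193 and 9.48 CPM in DMSO at 2 h, and at 0.211, 6.81 and 6.96 CPM in PNU and 0.0756 to 0.123 CPM in DMSO at 6 h. Its high libraries were those high in Ddx3y, so PNU and culture differences cannot be told apart for it. The following were chosen from the 74 after their values were seen. Col10a1, a collagen of hypertrophic cartilage, was at 2.63, 11.0 and 10.4 CPM against 1.91, 2.10 and 2.10 CPM at 2 h and at 1.00, 0.933 and 0.799 CPM against 2.12, 2.19 and 2.18 CPM at 6 h (difference -3.24 ± 0.57, edgeR adjusted p = 0.075). Igf2 and H19 are imprinted neighbours with a shared enhancer. H19 was at 2.56, 2.57 and 2.06 CPM against 18.8, 17.1 and 2.11 CPM at 2 h and at 17.1, 50.7 and 53.2 CPM against 12.8, 12.1 and 11.2 CPM at 6 h (difference 4.13 ± 0.91, adjusted p = 0.135 by edgeR), and Igf2 differed by 3.28 ± 0.78. Dlk1, another imprinted gene, differed by -2.51 ± 0.52 and Hey2, a Notch target, by 2.04 ± 0.42. In H19 and Igf2, DMSO at 2 h replicate 3 was as low as the PNU libraries.

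Among genes of insulin and peptide signalling, several passed the average test but not the difference test. Irs2, an insulin receptor adaptor, was at 64.1, 59.8 and 62.4 CPM against 28.9, 24.8 and 34.9 CPM at 2 h and at 35.4, 36.0 and 35.0 CPM against 33.7, 30.1 and 30.9 CPM at 6 h. Its effect was 1.11 ± 0.12 early and 0.19 ± 0.12 late (difference -0.92 ± 0.16, edgeR adjusted p = 0.0771). Its paralog Irs1 was at 25.5, 27.7 and 29.6 CPM against 117, 111 and 46.7 CPM and then 59.2, 67.5 and 70.8 CPM against 88.6, 88.3 and 90.5 CPM (difference 1.27 ± 0.37, adjusted p = 0.222 by edgeR). On average Irs2 rose by 0.65 ± 0.08 and Irs1 fell by 1.05 ± 0.18 (edgeR adjusted p = 0.00503 and 0.0145).

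Igfbp2, a secreted IGF binding protein, was higher in PNU at both times: 51.7, 60.9 and 59.5 CPM against 7.31, 5.08 and 30.6 CPM, then 49.4, 210 and 218 CPM against 3.25, 2.72 and 3.47 CPM. Its effect was 2.03 and then 5.68 (difference 3.65 ± 0.94, edgeR adjusted p = 0.181), with replicate 1 of PNU at 6 h well below the other 2. Penk, the enkephalin precursor, was lower at both times, with 21.5, 10.9 and 10.4 CPM against 28.6, 25.4 and 26.6 CPM and 9.50, 5.55 and 5.74 CPM against 37.8, 36.6 and 39.0 CPM, and fell on average by 1.65 ± 0.20 (adjusted p = 0.00489 by edgeR). Edn1, endothelin 1, fell on average by 0.64 ± 0.11 (edgeR adjusted p = 0.0138), with an effect of -1.04 ± 0.16 at 2 h and -0.23 ± 0.15 at 6 h (difference 0.81 ± 0.22, adjusted p = 0.201 by edgeR).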

How the data were processed

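RNA of 12 libraries was enriched for poly(A) and read as pairs of 150 bases. Per the labels' protocols, the authors trimmed with fastp 0.23.2, aligned to GRCm38 with STAR 2.5.2b and obtained gene counts from featureCounts (Subread 1.5.2). DESeq2 is named in the submitters' processing notes without a role. The authors deposited raw counts per gene, 1 table per library. Strand and multi-mapping settings are not given in the sources used here, so genes with an antisense partner or a near copy are uncertain.

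Counts of the 13144 genes were scaled by TMM and fitted with edgeR 4.0.16 (R 4.3.3) in 1 robust quasi-likelihood model of 4 group means over 12 libraries, and p-values were adjusted over all genes by Benjamini-Hochberg. The SE is the size of the log2 fold change divided by the root of F. Totals of 44332013 to 66518799 counts set the precision. Another scaling, DESeq2 1.42.0, limma 3.58.1 with voom, other filters and left-out libraries were the alternatives. The fit was tested on simulated counts. The members, the 40 lists and the rules were chosen with earlier results of these data known. Because fewer than 10 genes passed, the rule named the 20 of smallest p, then the 6 sustained genes of largest effect, up to 4 passing members of each list and a fixed set; not all are reported here, and genes named outside it were chosen after their values were seen. Promoter windows are RefSeq's, on GRCm38.p6.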

Additional observations from a re-analysis of the deposited data

Results flagged for a closer look

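The 6 genes whose PNU effect differed between 2 h and 6 h by the test of that difference are the results to look at again. The difference, 6 h minus 2 h on the log2 scale, was -0.78 for Clmp, 0.88 for Rab32, 1.14 for Cxcl1, -0.85 for Fnip2, -1.0 for Apln and 0.92 for Parm1. Groups of 3 libraries were too small to look for single outlying values.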

How the results depend on the processing

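For the difference of PNU effect (6 h minus 2 h), 6 genes were called with all libraries. The count was 305 with DESeq2 (116 positive, 189 negative), 15 without a filter, 0 with the replicate number as a block (1595 at an unadjusted p under 0.05), 0 with near-identical libraries summed, 0 against a minimum fold of 1.2 (823 at that p), 3847 without both libraries that stood apart, 175 without replicate 1 of both PNU groups (chosen after seeing the data), and 0 to 3126 with each library left out in turn, the highest without DMSO at 2 h replicate 3. Over all 4 groups the replicate numbers did not pair the libraries: same-numbered deviations correlated at -0.43 to 0.55 and 6 of 18 pairs were over 0.1. Between the PNU groups all 3 same-numbered pairs were over 0.1 (0.29, 0.25 and 0.24), as were replicates 2 and 3 crossed (0.26 and 0.23), and 7 of 12 libraries correlated best with their own number.

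For the average PNU effect, 1501 genes were called with all libraries. The count was 3165 with DESeq2, 957 without a filter, 933 at 10 CPM or more, 2114 with the replicate block, 0 with near-identical libraries summed (693 at an unadjusted p under 0.05), 78 against a minimum fold of 1.2, 8186 without both libraries that stood apart, 2403 without replicate 1 of both PNU groups, and 98 to 7007 with each library left out. With limma-voom the split was 617 higher and 473 lower, against 722 and 779. The causes were not tested.

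Under a bound of 2-fold, genes classed early only numbered 0, genes classed late only 1, genes classed small 5 and genes classed sustained 178. Programs classed early only numbered 6 without replicate 1 of both PNU groups and 5 to 14 with each library left out. Programs classed late only numbered 3 at a bound of 0.3, 3 without both libraries that stood apart and 4 to 6 with each left out. Programs classed sustained numbered 10 without both and 4 to 8 with each left out, and programs classed reversed 2 without both, 3 without replicate 1 of both PNU groups and 0 to 2 with each left out. The sign of the difference turned for Hmgcs1 (-0.12 without both libraries), and with a library left out it ranged from -0.0357 to 1.09 for the Pax6 difference and from -1.57 to 0.68 for the Six3 difference.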
